A study of Mus musculus with 12 samples.

Results

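Transcript levels of 10 genes of the NF-κB system were examined in control and senescent mouse adult fibroblasts (MAFs) with and without BMAL1. The genes were the Rel family subunits Rela, Relb, Rel, Nfkb1 and Nfkb2 and the inhibitors Nfkbia, Nfkbie, Nfkbiz, Bcl3 and Tnfaip3. They were taken by symbol, as a list of pathway genes chosen with earlier results of these data known, and all 10 of 10 were found among the 49315 gene identifiers of the count tables. RNA-seq had been performed on 12 libraries, with 3 replicates in each of 4 groups, control and senescent cells of the WT and of the KO genotype. WT cells came from the ears of adult C57BL/6 mice and KO cells from Bmal1 -/- mice, in which the gene for this circadian clock factor is disrupted in every tissue. Senescent cells had received 20 Gy of X-rays, and control cells were sham irradiated. Cells of all 4 groups were grown in 3% oxygen, were synchronized with 100 nM dexamethasone, a glucocorticoid that is itself a restraint on NF-κB, and were collected 12 h later. The sources used here do not say whether replicates came from separate animals or cultures, so each p-value measures the spread between these libraries, which may be technical.

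NF-κB factors are dimers of Rel family proteins that wait in the cytoplasm bound to inhibitors of the IκB family. Signals from cytokine and Toll-like receptors activate the IκB kinase (IKK) complex, the IκB is degraded, and the dimer enters the nucleus. Several of the genes it then switches on encode its own inhibitors, so that the response is limited by negative feedback. In senescent fibroblasts NF-κB is known for driving many genes of the secretory phenotype. RNA levels do not report this nuclear entry, which was not measured here.

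Promoters of 7 of the 10 genes were listed in the RefSeq promoter table (GRCm38.p6; 250 bases before to 50 bases after a transcription start). Nfkb1, Relb and Nfkbiz were not matched. The degenerate κB consensus, searched on both strands, was present in 8 of the 10 listed promoters of these genes and in 6 of the 7 genes, the exception being Rela. Among all 32851 promoters of 300 bases, 8.46% held it. The Nfkb2 promoters at chr19:46305445-46305744 and chr19:46305680-46305979 overlap and share a match, so the same site is counted in both. The Tnfaip3 promoter at chr10:19011914-19012213 held no match, while the other listed promoter of Tnfaip3 did. The pattern TGANTCA was searched, which is wider than the AP-1 motif TGASTCA of the study (S is G or C). It was found for Nfkb2 (TGAATCA), Nfkbie (TGAGTCA) and Tnfaip3 (TGACTCA), and in 7.81% of all promoters. The Nfkb2 match is outside the narrower TGASTCA. The E-box CACGTG, the motif class bound by BMAL1, was found for Tnfaip3 (7.15% of all promoters). These matches describe the letters in these windows and were not tested for binding. The promoters of 4 feedback genes are shown, chosen after seeing that most differences between WT and KO senescent cells were in these genes. Bases matching the κB consensus on either strand are in capitals. Rela also differed between those cells, and its listed promoter, which held no match, is not shown. For Nfkb2 and Tnfaip3 a single listed promoter is shown and the others are left out. The shown promoters lie at chr12:55492598-55492897 on the minus strand (Nfkbia), chr10:19015361-19015660 on the minus strand (Tnfaip3), chr19:46304487-46304786 on the plus strand (Nfkb2) and chr7:19822706-19823005 on the minus strand (Bcl3).
Nfkbia: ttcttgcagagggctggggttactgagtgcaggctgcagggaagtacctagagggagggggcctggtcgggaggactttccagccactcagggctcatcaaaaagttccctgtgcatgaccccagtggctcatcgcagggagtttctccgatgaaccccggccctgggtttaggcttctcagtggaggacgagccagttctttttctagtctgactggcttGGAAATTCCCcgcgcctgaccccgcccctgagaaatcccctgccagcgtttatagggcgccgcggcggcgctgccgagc
Tnfaip3: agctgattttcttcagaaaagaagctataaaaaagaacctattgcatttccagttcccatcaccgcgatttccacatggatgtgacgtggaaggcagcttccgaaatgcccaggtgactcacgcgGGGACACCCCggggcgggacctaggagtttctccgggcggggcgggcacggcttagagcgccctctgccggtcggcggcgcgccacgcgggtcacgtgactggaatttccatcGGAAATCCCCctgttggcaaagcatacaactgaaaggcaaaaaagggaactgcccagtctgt
Nfkb2: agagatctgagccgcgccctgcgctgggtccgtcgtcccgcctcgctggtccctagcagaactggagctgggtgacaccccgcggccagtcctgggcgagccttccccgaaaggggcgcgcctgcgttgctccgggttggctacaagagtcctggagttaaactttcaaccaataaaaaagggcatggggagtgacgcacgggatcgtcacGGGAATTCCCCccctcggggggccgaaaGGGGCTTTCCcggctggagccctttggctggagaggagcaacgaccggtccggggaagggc
Bcl3: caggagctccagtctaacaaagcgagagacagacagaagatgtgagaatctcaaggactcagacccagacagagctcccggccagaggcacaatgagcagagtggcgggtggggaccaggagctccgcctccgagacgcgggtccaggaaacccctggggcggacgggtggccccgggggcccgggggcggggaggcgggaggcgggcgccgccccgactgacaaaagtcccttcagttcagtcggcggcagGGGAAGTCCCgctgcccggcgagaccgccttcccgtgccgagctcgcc

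Total counts were 23923030 to 31736083 per library, and 3 counts, taken as the detection floor, equalled 0.0945 to 0.125 counts per 1000000 counts of the library (CPM). The lowest member count was 69, for Nfkbie in WT control replicate 3, and intervals cover counting error and the spread between these libraries only. Arntl, the gene for BMAL1, was 31.5 ± 1.71 CPM in WT control, 36.1 ± 1.10 CPM in WT senescent, 13.2 ± 1.83 CPM in KO control and 26.6 ± 1.13 CPM in KO senescent cells (SD, n = 3). Counts over the whole gene do not show whether these reads lay in the deleted part. The cells carried fibroblast markers in every library, with Col1a1 at 1726 CPM or more. Chondrocyte markers were also abundant: the sum of 5, led by Col2a1, was 6896 to 8531 CPM in WT control, 1763 to 2044 CPM in WT senescent, 4505 to 6145 CPM in KO control and 553 to 636 CPM in KO senescent cells. Markers of other cell types were low but present. The sum of 10 leukocyte and macrophage markers was 12.6 to 22.4 CPM over all libraries, and that of 5 keratinocyte markers 10.1 to 19.6 CPM. Their part in the levels of the members was not tested. B-lymphocyte transcripts were detected in all libraries, while the T-cell genes Cd3e and Cd3g were at the floor. The sum of the 6 lymphocyte markers was 14.0 to 19.1 CPM in WT control, 13.5 to 17.3 CPM in WT senescent and 11.8 to 21.5 CPM in KO control cells. KO senescent replicates 2 and 3 stood apart with sums of 6.24 and 5.77 CPM, against 14.6 CPM in replicate 1. In these bulk samples, fewer cells of a type and less RNA per cell cannot be told apart.

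Rela, Relb and Nfkbie rose and Rel, Nfkb1, Nfkbiz and Bcl3 fell with senescence in both genotypes. Nfkb2, Nfkbia and Tnfaip3 rose past the test in KO cells and did not pass in WT cells, and for Nfkb2 the difference between genotypes passed its own test. In WT cells 3 members rose, 4 fell and 3 did not pass at an adjusted p of 0.05, against 29.2% and 27.0% of the 17416 genes tested that rose and fell (56.2% in either direction). In KO cells 6 rose and 4 fell, against 28.5% and 28.6% of genes (57.1% in either direction). The groups did not overlap for 7 members in WT cells (63.2% of genes) and for all 10 in KO cells (61.6% of genes). The median log2 fold change of the 10 was -0.02 in WT and 0.28 in KO cells, beside 0.025 and -0.003 over all genes tested. Bcl3 was the only member to change by over 1 on the log2 scale, and it fell in both genotypes, where 5.90% of genes in WT and 7.58% of genes in KO cells fell as far.

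**Figure D1:**
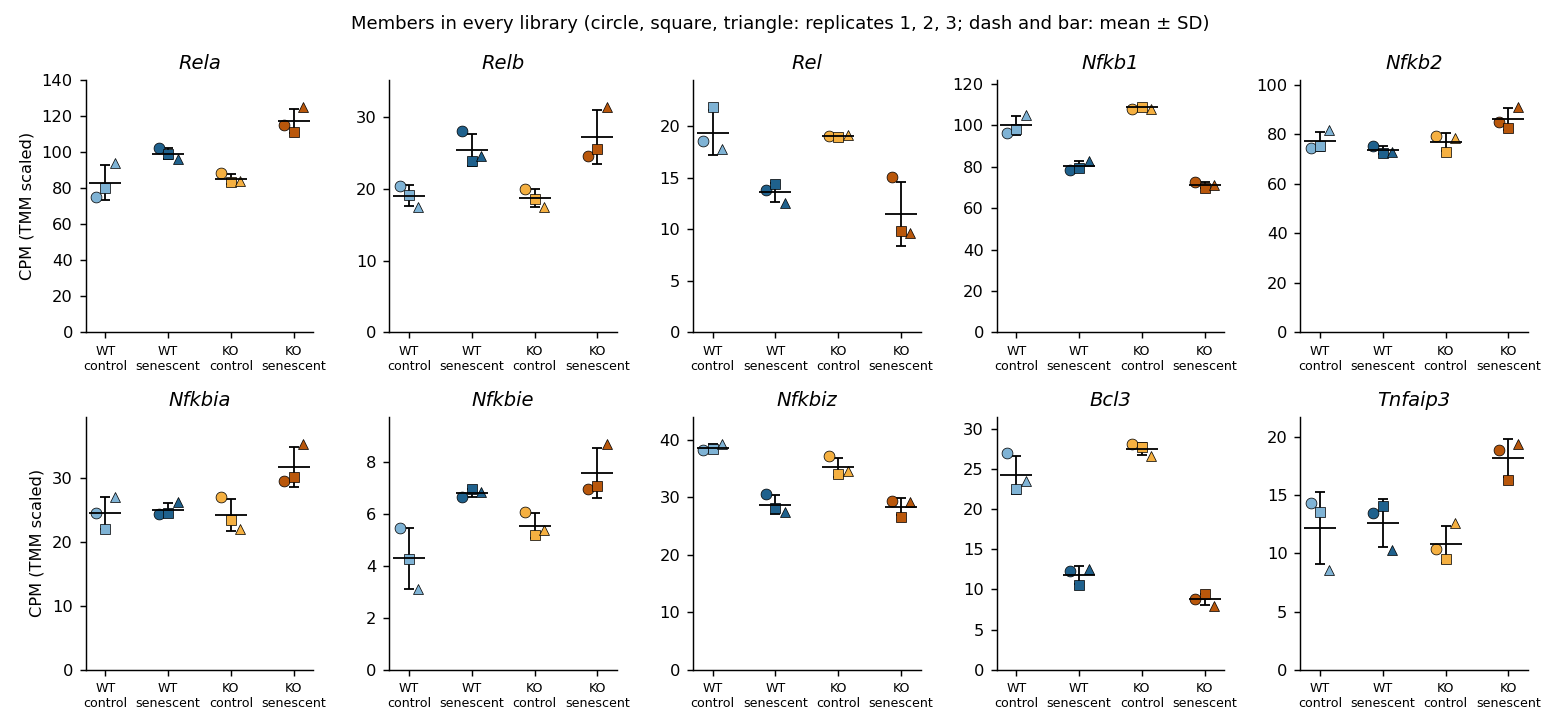
Level of each of the 10 genes in CPM (linear axis from 0) in the 12 libraries, with circles, squares and triangles for replicates 1, 2 and 3 and the mean ± SD of 3 libraries in black. Bcl3 lies between 22.5 and 28.1 CPM in the control libraries and between 8.0 and 12.5 CPM in the senescent ones, while the KO senescent libraries hold the highest values of Rela, Nfkb2, Nfkbia and Tnfaip3.

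**Figure D2:**
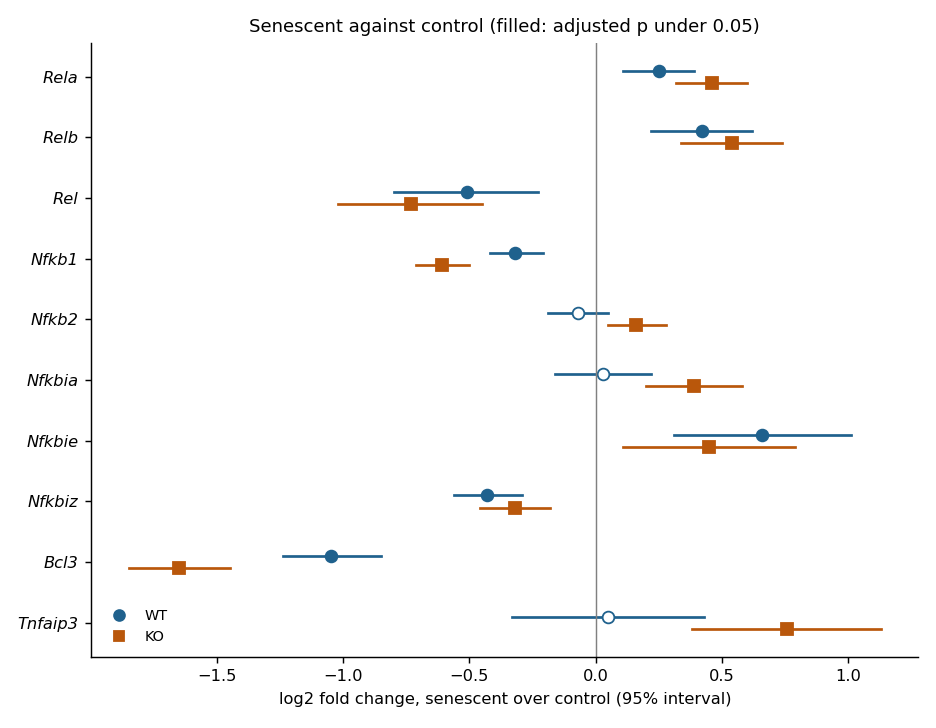
Fold change of each gene between senescent and control cells on the log2 scale, with 95% intervals, in WT cells (circles) and KO cells (squares); filled symbols have an adjusted p under 0.05. Every interval in KO cells lies clear of 0, whereas those of Nfkb2, Nfkbia and Tnfaip3 in WT cells span it.

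Rela, Relb and Rel encode the subunits with their own activation domains, and the first 2 rose while the third fell. Rela encodes p65, the activating partner of the classical dimer. It stood at 75.1, 80.0 and 94.0 CPM in the WT control libraries, 102, 99.0 and 95.8 CPM in WT senescent, 88.1, 83.4 and 83.7 CPM in KO control and 115, 111 and 125 CPM in KO senescent replicates 1 to 3. Both senescent groups lay wholly above their controls, and the KO senescent libraries were the highest. Rela rose by 0.25 ± 0.07 on the log2 scale in WT cells (± SE; adjusted p = 0.00298) and by 0.46 ± 0.07 in KO cells (adjusted p = 5.44e-06). These 2 changes differed by 0.21 ± 0.09, which did not pass (adjusted p = 0.139).

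Relb, the partner of the Nfkb2 product p52 in the alternative pathway, was 20.4, 19.1 and 17.5 CPM in WT control and 28.0, 23.8 and 24.5 CPM in WT senescent cells. In KO cells it was 20.0, 18.6 and 17.5 CPM in control and 24.6, 25.5 and 31.4 CPM in senescent replicates. Senescent and control libraries did not overlap in either genotype, while the KO senescent and WT senescent ranges did. Relb rose by 0.42 ± 0.10 in WT (adjusted p = 0.000934) and by 0.54 ± 0.10 in KO cells (adjusted p = 6.47e-05), a difference of 0.12 with a 95% interval of -0.17 to 0.40.

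Rel encodes c-Rel, the subunit best known from lymphocytes. It was 18.6, 21.9 and 17.8 CPM in the WT control libraries, 13.8, 14.4 and 12.6 CPM in WT senescent, 19.1, 19.0 and 19.2 CPM in KO control and 15.1, 9.82 and 9.66 CPM in KO senescent replicates 1 to 3. All senescent libraries lay below all control libraries. Rel fell by 0.51 ± 0.13 on the log2 scale in WT (adjusted p = 0.0032) and by 0.73 ± 0.14 in KO cells (adjusted p = 0.000151). KO senescent replicates 2 and 3, with the lowest Rel, were also those with the lowest lymphocyte marker sums. With the log2 lymphocyte sum as a covariate, chosen after seeing the data, the log2 change was -0.47 in WT (adjusted p = 0.000393) and -0.38 in KO cells (adjusted p = 0.0331). The part of lymphocyte RNA in the level of Rel was not tested beyond this fit. Without KO senescent replicate 1, the KO change exceeded the WT change (interaction -0.45, adjusted p = 0.0314), and Rel was lower in KO senescent than in WT senescent cells (log2 difference -0.48, adjusted p = 0.00351); with all libraries these values were -0.22 (adjusted p = 0.457) and -0.25 (adjusted p = 0.22).

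Nfkb1 and Nfkb2 encode the precursors p105 and p100, which act as inhibitors themselves and are processed to the DNA-binding subunits p50 and p52. The 2 precursors parted in senescence. Nfkb1 was 96.4, 98.5 and 105 CPM in WT control and 78.3, 79.5 and 83.0 CPM in WT senescent cells. In KO cells it was 108, 109 and 108 CPM in control and 72.5, 69.8 and 71.4 CPM in senescent replicates. The 4 groups did not overlap one another, and the KO libraries held both the highest and the lowest values. Nfkb1 fell by 0.32 ± 0.05 in WT (adjusted p = 1.37e-05) and by 0.61 ± 0.05 in KO cells on the log2 scale (adjusted p = 1.13e-09). The fall was steeper in KO cells by the test of the difference itself (-0.29 ± 0.07, adjusted p = 0.00549).

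Nfkb2 was 74.3, 75.3 and 81.7 CPM in the WT control libraries, 75.4, 72.3 and 72.7 CPM in WT senescent, 79.4, 72.8 and 78.5 CPM in KO control and 84.8, 82.5 and 91.1 CPM in KO senescent replicates. The first 3 groups overlapped, and all KO senescent libraries lay above them. Its log2 change was -0.07 ± 0.06 in WT (adjusted p = 0.317) and 0.16 ± 0.06 in KO cells (adjusted p = 0.0165), and the changes differed by 0.23 ± 0.08 (adjusted p = 0.0422). These calls were close to the threshold. Leaving out KO control replicate 2 gave a KO change of 0.12 (adjusted p = 0.118), and leaving out KO senescent replicate 3 gave 0.12 (adjusted p = 0.0963). With no filter on low counts the KO change was 0.15 (adjusted p = 0.0584) and the interaction 0.22 (adjusted p = 0.0899). The interaction was 0.19 to 0.25 and did not pass (adjusted p = 0.0576 to 0.14) without any one of WT control replicate 3, the WT senescent replicates 1, 2 and 3, the KO control replicates 2 and 3 and KO senescent replicate 3. Exons of Nfkb2 share 11.58% of their length with AC114539.1 and 6.52% with Psd, both on the opposite strand, and since the use of strand in counting is not given, reads there cannot be told apart. As a ratio of CPM per kilobase of exon, Nfkb2 to Nfkb1 was 2.03 ± 0.0154 in WT control, 2.41 ± 0.115 in WT senescent, 1.86 ± 0.0969 in KO control and 3.18 ± 0.154 in KO senescent cells (SD, n = 3), with no overlap between senescent and control libraries. The size of this ratio depends on the exon lengths used, which merge all annotated transcripts of a gene.

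Nfkbia and Nfkbie encode IκBα and IκBε, the inhibitors that hold dimers in the cytoplasm and are resynthesized after NF-κB activation. Nfkbia, a target of both NF-κB and the glucocorticoid receptor, was 24.5, 22.0 and 27.1 CPM in WT control and 24.3, 24.5 and 26.3 CPM in WT senescent cells. It was 27.0, 23.5 and 22.0 CPM in KO control and 29.5, 30.2 and 35.3 CPM in KO senescent cells. The WT groups overlapped, and each KO senescent library lay above every other library. The log2 change was 0.03 (95% interval -0.16 to 0.22, adjusted p = 0.806) in WT and 0.39 ± 0.09 (adjusted p = 0.000912) in KO cells. The difference of 0.36 ± 0.13 missed the threshold (adjusted p = 0.0519). It passed in DESeq2 (0.39, adjusted p = 0.0372), with no filter on low counts (0.35, adjusted p = 0.0248), and without WT control replicate 2 (0.43, adjusted p = 0.021), KO control replicate 1 (0.45, adjusted p = 0.0118) or KO senescent replicate 1 (0.41, adjusted p = 0.0356).

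Nfkbie was the least counted member. It measured 5.47, 4.28 and 3.12 CPM in the WT control libraries, 6.63, 6.94 and 6.83 CPM in WT senescent, 6.08, 5.19 and 5.37 CPM in KO control and 6.95, 7.06 and 8.68 CPM in KO senescent replicates. Senescent libraries lay above their controls in both genotypes. Nfkbie rose by 0.66 ± 0.17 in WT (adjusted p = 0.00224) and by 0.45 ± 0.16 in KO cells (adjusted p = 0.0234), and the changes differed by -0.21 (95% interval -0.70 to 0.28). The KO rise did not pass without KO control replicate 2 (0.40, adjusted p = 0.0834), KO control replicate 3 (0.42, adjusted p = 0.0684) or KO senescent replicate 3 (0.34, adjusted p = 0.121).

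The nuclear IκB proteins IκBζ, from Nfkbiz, and BCL3 act on dimers already bound to DNA, mostly on p50 or p52, and can help or hinder transcription. Both genes fell. Nfkbiz was 38.1, 38.4 and 39.2 CPM in the WT control libraries, 30.6, 28.1 and 27.4 CPM in WT senescent, 37.1, 34.1 and 34.5 CPM in KO control and 29.3, 26.6 and 29.1 CPM in KO senescent replicates. All senescent libraries were below all control libraries, and the senescent groups overlapped. Nfkbiz fell by 0.43 ± 0.07 in WT (adjusted p = 1.45e-05) and by 0.32 ± 0.07 in KO cells on the log2 scale (adjusted p = 0.000399), with a difference of 0.11 (95% interval -0.09 to 0.31).

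Bcl3 showed the largest change of the 10. It was 27.0, 22.5 and 23.5 CPM in WT control and 12.3, 10.5 and 12.5 CPM in WT senescent cells, and 28.1, 27.8 and 26.6 CPM in KO control and 8.84, 9.43 and 8.0 CPM in KO senescent cells. The control groups overlapped, whereas each KO senescent library lay below each WT senescent library. The log2 change was -1.05 ± 0.09 in WT (0.48-fold, adjusted p = 5.15e-09) and -1.65 ± 0.10 in KO cells (0.32-fold, adjusted p = 4.61e-12), and the fall was larger in KO cells by -0.60 ± 0.13 (adjusted p = 0.00308). The WT change stood at -0.97 without WT control replicate 1 and at -0.97 without WT senescent replicate 2, still past the test but under 1 in size. Chondrocyte markers fell in the same groups and also further in KO cells (Col2a1 log2 change -1.85 in WT and -2.76 in KO cells), and their part in the fall of Bcl3 was not tested. A short stretch of Bcl3 exons (6.51%) overlaps the antisense gene Gm16175, which had 62 counts over all 12 libraries. Bcl3 also had the highest F over the 4 groups among the 10 (140). The 3 genes whose 4 group means on the log2 CPM scale, centred over groups, lay nearest to those of Bcl3 were Glis1, Cntrob and Zranb3, with root mean square differences of 0.035, 0.053 and 0.060 among 10946 genes of at least 5 CPM over 12 libraries.

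Tnfaip3 encodes A20, a ubiquitin-editing enzyme that shuts off signalling to IKK. It stood at 14.3, 13.6 and 8.58 CPM in the WT control libraries, 13.5, 14.1 and 10.3 CPM in WT senescent, 10.4, 9.50 and 12.6 CPM in KO control and 18.9, 16.3 and 19.4 CPM in KO senescent replicates. The first 3 groups overlapped and the KO senescent libraries lay above all of them. The log2 change was 0.05 (95% interval -0.33 to 0.43, adjusted p = 0.828) in WT and 0.76 ± 0.17 in KO cells (1.69-fold, adjusted p = 0.00178). The difference of 0.70 ± 0.25 just missed the threshold (adjusted p = 0.0576). It passed in DESeq2 (0.73, adjusted p = 0.0143), with no filter on low counts (0.69, adjusted p = 0.000196), and without WT control replicate 3 (0.89, adjusted p = 0.002), KO control replicate 3 (0.82, adjusted p = 0.0405) or KO senescent replicate 2 (0.77, adjusted p = 0.0495).

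The 2 genotypes were then compared directly. In control cells 0 of 10 members passed in edgeR, where 13.0% of all genes did, and 0 passed in DESeq2. Nfkb1 (0.12 ± 0.05) and Nfkbie (0.36 ± 0.17) were the 2 members with an unadjusted p under 0.05, and they had adjusted p values of 0.125 and 0.183. Without WT control replicate 3 Nfkb1 passed (0.16, adjusted p = 0.0475). Libraries of the 2 control groups did not overlap for 2 members, Nfkb1 and Nfkbiz (25.9% of genes).

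In senescent cells 6 of 10 members differed between genotypes, against 23.7% of genes: Rela, Nfkb2, Nfkbia and Tnfaip3 were higher in KO cells (11.9% of genes) and Nfkb1 and Bcl3 lower (11.8% of genes). The log2 differences, KO over WT, were 0.24 ± 0.07 for Rela, 0.23 ± 0.06 for Nfkb2, 0.34 ± 0.09 for Nfkbia, 0.53 ± 0.17 for Tnfaip3, -0.17 ± 0.05 for Nfkb1 and -0.43 ± 0.10 for Bcl3. The adjusted p was 0.0111, 0.00458, 0.00803, 0.037, 0.0151 and 0.00329 in that order. Libraries did not overlap for these 6 and for Nfkbie, 7 in all (42.0% of genes). All 6 differences were under 1 on the log2 scale. Some of these calls rested on single libraries. Rela did not pass without WT senescent replicate 3 (0.22, adjusted p = 0.0636) or KO senescent replicate 3 (0.19, adjusted p = 0.0657), Nfkbia without KO senescent replicate 3 (0.26, adjusted p = 0.0657), and Nfkb1 without WT senescent replicate 3 (-0.15, adjusted p = 0.0921) or KO senescent replicate 2 (-0.16, adjusted p = 0.0617). Tnfaip3 did not pass without WT senescent replicate 1 (0.58) or 3 (0.40), KO control replicate 1 (0.53), or KO senescent replicate 1 (0.50) or 3 (0.48), with an adjusted p of 0.0536 to 0.132. Because WT and KO counts came in separate tables, handling of a table and genotype cannot be told apart.

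In the interaction, which compares the senescence changes of the 2 genotypes, 3 of 10 members passed, against 20.9% of genes. Nfkb2 was on the higher side (9.24% of genes) and Nfkb1 and Bcl3 on the lower side (11.7% of genes). The interaction, the 2 senescence comparisons and the comparison of senescent cells use the same libraries and are not separate evidence.

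**Figure D3:**
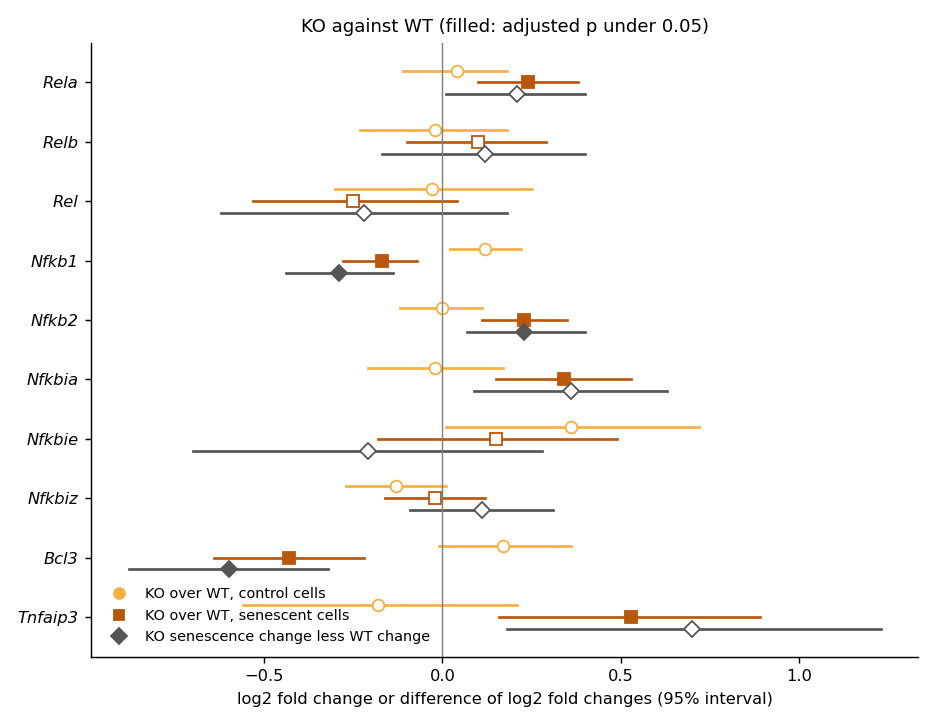
Difference between KO and WT for each gene on the log2 scale, with 95% intervals, in control cells (circles), in senescent cells (squares) and as the difference of the 2 senescence changes (diamonds); filled symbols have an adjusted p under 0.05. No circle is filled, 6 squares are, and the filled diamonds belong to Nfkb1, Nfkb2 and Bcl3.

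Because lymphocyte marker sums were low in KO senescent replicates 2 and 3, and not in replicate 1, the comparisons were repeated with the log2 lymphocyte sum as a covariate, an alternative added after seeing the data. In KO cells the rises of Nfkb2 (0.11, adjusted p = 0.276), Nfkbia (0.17, adjusted p = 0.23) and Nfkbie (0.30, adjusted p = 0.319) no longer passed, so that 3 members rose and 4 fell. Of the 17416 genes tested, 3780 rose and 4148 fell in this fit, against 4964 and 4983 without the covariate. Rela (0.38), Relb (0.40) and Tnfaip3 (0.90) still rose and Rel, Nfkb1, Nfkbiz and Bcl3 still fell. The interaction remained for Nfkb1 (-0.29, adjusted p = 0.0271) and Bcl3 (-0.60, adjusted p = 0.0204) and not for Nfkb2 (0.18, adjusted p = 0.216). Between senescent KO and WT cells Bcl3 alone of the 10 passed (-0.42, adjusted p = 0.0365). Calls were also fewer over all genes there, with 1046 higher and 1144 lower, against 2080 and 2050 without the covariate. The loss of calls was thus not particular to the members. The log2 differences that no longer passed were -0.17 for Nfkb1 (adjusted p = 0.0935), 0.64 for Tnfaip3 (0.0953), 0.18 for Nfkb2 (0.0935), 0.18 for Rela (0.189) and 0.16 for Nfkbia (0.359), so that Nfkb1 kept its value, Tnfaip3 had a larger one, and the other 3 had smaller ones. The WT changes kept their calls. The part of lymphocyte RNA in these differences was not tested beyond this fit.

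Per kilobase of exon, with exons merged over all annotated transcripts of a gene, Rela was the most abundant member in every group. Rela stood at 27.0 ± 3.18 CPM per kb in WT control and 38.1 ± 2.21 CPM per kb in KO senescent cells. In WT control cells it was followed by Nfkb2 (16.8 ± 0.875), Nfkbia (15.2 ± 1.57), Bcl3 (9.83 ± 0.960), Nfkb1 (8.29 ± 0.384), Nfkbiz (7.69 ± 0.112), Relb (4.89 ± 0.375), Rel (2.60 ± 0.292), Tnfaip3 (1.68 ± 0.431) and Nfkbie (1.41 ± 0.387 CPM per kb). Nfkb2 and Nfkbia overlapped, as did Tnfaip3 and Nfkbie, and the other neighbours in this order did not. Neighbours that overlapped were Nfkb2 and Nfkbia, Nfkb1 and Relb, and Rel and Tnfaip3 in WT senescent cells, Nfkb2 and Nfkbia and Nfkbie and Tnfaip3 in KO control cells, and Nfkbia and Nfkb2, Nfkb1 and Nfkbiz, and Tnfaip3 and Nfkbie in KO senescent cells. Bcl3 held rank 4 in both control groups and rank 7 in both senescent groups. Relb moved from rank 7 to rank 5 in WT and from rank 7 to rank 4 in KO senescent cells, and Rel was the least abundant member in KO senescent cells, at 1.54 ± 0.414 CPM per kb. The merged lengths, 12061 bases for Nfkb1, can exceed those of the transcripts present, which were not resolved. This order and the shares below depend on them. Without division by length, mean Nfkb1 lay above Rela in WT control (100.0 and 83.0 CPM) and KO control cells (109 and 85.1 CPM). In both senescent groups it lay below Rela.

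In the makeup of the Rel family transcripts, the shares of Rela and Relb were higher and those of Rel, Nfkb1 and Nfkb2 lower in senescent than in control cells of both genotypes. Rela made up 45.2% ± 2.28 of the summed CPM per kb of the 5 subunits in WT control, 50.9% ± 0.536 in WT senescent, 45.5% ± 0.373 in KO control and 53.4% ± 0.172 in KO senescent cells (SD, n = 3). Nfkb1 made up 13.9% ± 0.270, 10.5% ± 0.581, 14.8% ± 0.479 and 8.30% ± 0.417 in the same order, and Rel 4.39% ± 0.648, 2.88% ± 0.184, 4.21% ± 0.114 and 2.17% ± 0.620. Relb made up 8.26% ± 1.15, 10.3% ± 0.645, 7.91% ± 0.403 and 9.78% ± 0.835, and Nfkb2 28.2% ± 0.465, 25.3% ± 0.238, 27.6% ± 0.802 and 26.4% ± 0.119. The ranges of senescent and control libraries did not overlap for any of the 5 shares in either genotype. For CPM of single genes, 63.2% of genes in WT and 61.6% in KO cells did not overlap. The 5 shares add up to a fixed whole, so they are not separate results, and a share can fall while its gene rises. Mean Nfkb2 itself was higher in KO senescent (86.2 CPM) than in KO control cells (76.9 CPM), though its share was lower. The summed level of the 5 was 59.6 ± 3.93, 63.3 ± 1.74, 60.8 ± 1.66 and 71.3 ± 3.99 CPM per kb, with overlap between the WT groups. The ratio of Nfkbia to Rela per kilobase was 0.566 ± 0.0504 in WT control, 0.483 ± 0.0357 in WT senescent, 0.541 ± 0.0415 in KO control and 0.516 ± 0.0254 in KO senescent cells. These ratios overlapped between the KO groups and not between the WT groups.

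**Figure D4:**
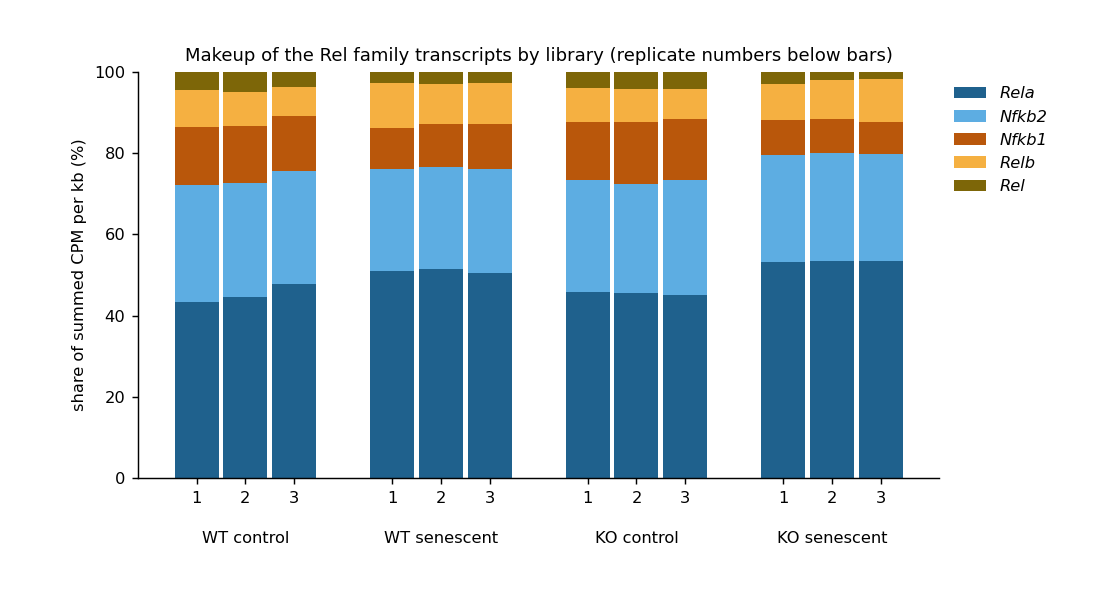
Share of each Rel family subunit in the summed CPM per kilobase of the 5 subunits (percent, linear axis), 1 bar per library, grouped by genotype and state. Rela takes 43.4% to 47.8% of the control bars and 50.4% to 53.5% of the senescent bars, and Nfkb1 takes 13.6% to 15.3% and 7.82% to 11.1%.

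The rest of the pathway was described from lists of its parts. Of 19 other IκB proteins and restraints, 18 were tested, of which 10 rose and 2 fell in WT and 9 rose and 1 fell in KO senescent cells, with median log2 changes of 0.14 and 0.18 beside 0.025 and -0.003 over all genes. These counts are 55.6% and 11.1% of the tested list in WT and 50% and 5.56% in KO cells, where 29.2% and 27.0% of all genes rose and fell in WT and 28.5% and 28.6% in KO cells. Pdlim2, which directs nuclear p65 to degradation, rose in both genotypes (1.37 ± 0.09 in WT and 0.90 ± 0.09 in KO cells). Nkiras1, a Ras-like protein that binds IκB, rose by 0.91 and 0.78, and Rnf11, a subunit of the A20 complex, by 0.18 and 0.57. The deubiquitinase Otud7b rose by 0.15 and 0.39. Nfkbib, the gene for IκBβ, changed by -0.09 (adjusted p = 0.46) in WT and rose by 0.36 in KO cells, whereas Irak3, an inhibitor of Toll-like receptor signalling, rose by 0.56 in WT and changed by 0.10 (adjusted p = 0.501) in KO cells, changes whose difference did not pass (-0.46 ± 0.17, adjusted p = 0.0587). The ligase Itch had log2 changes of -0.17 and -0.17, past the test in both genotypes, and Otulin fell by 0.18 in WT cells on the log2 scale. The A20-binding protein Tnip1 (0.11 and -0.07) and the deubiquitinase Cyld (-0.00 and 0.05) did not pass.

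Among the 3 IKK subunits, 1 passed the test. Ikbkg, the gene for its regulatory subunit NEMO, was 73.2 CPM in WT control, 108 CPM in WT senescent, 77.7 CPM in KO control and 135 CPM in KO senescent cells and rose by 0.56 ± 0.05 in WT and 0.79 ± 0.05 in KO cells. The catalytic subunits Chuk (-0.11 and -0.05) and Ikbkb (-0.00 and 0.01) did not pass in either genotype. Of the 12 genes of this list 2 rose and 4 fell in WT cells and 3 rose and 6 fell in KO cells, which is 16.7% and 33.3% in WT (29.2% and 27.0% of all genes) and 25.0% and 50% in KO cells (28.5% and 28.6% of all genes). The IKK-related kinase Tbk1 (-0.42 and -0.49), the TAK1-binding protein Tab1 (-0.40 and -0.33) and the kinase Map3k3 (-0.30 and -0.65) fell in both genotypes, and Map3k7, the gene for TAK1, rose (0.14 and 0.16). Ikbke (-0.60), Tab2 (-0.32) and Map3k8 (-0.68) fell in KO cells and Tab3 (0.24) rose there. Map3k14, the gene for NIK, the kinase that starts p100 processing, had a log2 change of -0.29 ± 0.08 (adjusted p = 0.0034) in WT and -0.02 (adjusted p = 0.81) in KO cells, and the test of their difference was not passed (0.27 ± 0.11, adjusted p = 0.0957). Nor was it for Map3k8 (-0.67 ± 0.24, adjusted p = 0.0518) and Tab3 (0.19 ± 0.13, adjusted p = 0.339).

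Of 18 adaptors and ubiquitin ligases, 3 rose and 5 fell in WT and 4 rose and 7 fell in KO cells. The WT counts are 16.7% and 27.8% of the list, beside 29.2% and 27.0% of all genes, and the KO counts 22.2% and 38.9%, beside 28.5% and 28.6%. Irak2, a kinase-like adaptor of interleukin-1 and Toll-like receptors, rose in both genotypes (0.80 ± 0.11 in WT and 1.17 ± 0.10 in KO cells), and Birc3, a ligase gene induced by NF-κB, rose by 0.29 and 0.28. Traf3, a brake on NIK, had a log2 change of -0.33 ± 0.06 (adjusted p = 9.36e-05) in WT and 0.08 (adjusted p = 0.278) in KO cells. Tirap (-0.41 and -0.22), Tradd (-0.31 and -0.35) and Ticam1 (-0.27 and -0.30) fell in both genotypes. Sharpin rose in WT cells (0.21), and in KO cells Traf5 rose (0.36) while Irak4 (-0.33) and Birc2 (-0.23) fell; for Traf5 and Irak4 the test of the difference between genotypes was not passed (adjusted p = 0.566 and 0.185). Traf1 (-0.25 and 0.18) passed in neither.

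Among 12 ligands, 6 were high enough to be tested, and Tnf had 1, 1, 4 and 2 counts in the 4 groups of 3 libraries and Il1b 1, 12, 1 and 3, given as WT control, then WT senescent, then KO control, then KO senescent. Tnfsf11, the gene for RANKL, had log2 changes of -1.17 ± 0.08 in WT and -2.03 ± 0.08 in KO cells, and Tnfsf12, the gene for TWEAK, rose by 0.70 and 0.71. Of 14 receptors, 4 rose and 5 fell in WT and 5 rose and 7 fell in KO cells. As shares these are 28.6% and 35.7% in WT, near the 29.2% and 27.0% of all genes, and 35.7% and 50% in KO cells, where 28.5% and 28.6% of all genes did so. The Toll-like receptors Tlr2 (0.85 and 0.78), Tlr3 (1.06 and 0.41) and Tlr4 (0.69 and 1.02) rose in both genotypes, as did the TNF receptor gene Tnfrsf1b (0.54 and 0.93). The TNF receptor gene Tnfrsf1a (-0.22 and -0.46), the interleukin-1 receptor gene Il1r1 (-0.48 and -1.0), Il1rl1 (-0.29 and -0.55) and the lymphotoxin receptor gene Ltbr (-0.17 and -0.17) fell in both. In KO cells Tnfrsf12a, the TWEAK receptor, rose (0.86) and Il1rap fell (-0.54), and their WT changes were -0.07 (adjusted p = 0.567) and 0.11 (adjusted p = 0.395).

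Of 33 known NF-κB target genes outside these lists, 31 were tested, of which 17 rose and 6 fell in WT and 21 rose and 4 fell in KO cells. That is 54.8% and 19.4% in WT (29.2% and 27.0% of all genes) and 67.7% and 12.9% in KO cells (28.5% and 28.6% of all genes). The median log2 change was 0.68 in WT and 0.91 in KO cells, and 13 and 15 genes rose by over 1, where 11.6% and 11.2% of all genes did. Some targets passed the filter on low counts only through senescent libraries, so they could hardly be counted as falling. Saa3 had 6 and 7 counts in the WT and KO control groups, against 174 and 152 in the senescent groups. Ccl5 had 4 and 7, against 61 and 27. The counts and medians above include such genes. The adhesion molecule gene Icam1 went from 17.0 to 101 CPM in WT cells, a log2 change of 2.57 ± 0.07, and in KO cells from 10.8 to 67.2 CPM, a log2 change of 2.64 ± 0.07. The chemokines Ccl2 (1.03 and 1.82) and Ccl7 (1.69 and 1.46), the cytokine Lif (1.29 and 2.88), the protease Mmp3 (1.66 and 2.11) and Vcam1 (1.10 and 0.49) rose in both genotypes. The interleukin Il6 (-0.76 and -1.01) and the pentraxin Ptx3 (-0.84 and -0.99) fell in both. The prostaglandin synthase Ptgs2 had a log2 change of -0.78 ± 0.18 (adjusted p = 0.00531) in WT and 0.48 ± 0.18 (adjusted p = 0.0494) in KO cells. Cxcl5 (-0.57) and Irf1 (-0.54) fell in KO cells, and Cxcl1 (-0.26 and -0.34) passed in neither. Many of these genes have other activators, so their levels do not measure NF-κB activity.

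All cells had received dexamethasone, and of the glucocorticoid receptor gene and 7 of its targets 5 rose and 2 fell in each genotype, or 62.5% and 25.0% of the 8, beside 29.2% and 27.0% of all genes in WT and 28.5% and 28.6% in KO cells. The receptor gene Nr3c1 rose by 0.28 in WT and 0.18 in KO cells. Tsc22d3, the gene for GILZ, which binds p65, rose by 1.33 ± 0.17 and 0.78 ± 0.15, and was also higher in KO control than in WT control cells (1.19 ± 0.17, adjusted p = 0.000844). Zbtb16 (2.33 and 1.28), Klf9 (0.90 and 1.02) and the phosphatase gene Dusp1 (0.86 and 1.73) rose, while Fkbp5 (-1.76 and -1.63) and Per1 (-0.28 and -0.46) fell in both genotypes. Glucocorticoid targets and members moved in the same libraries, and the part of the receptor in the levels of Nfkbia and Tnfaip3 was not tested.

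**Figure D5:**
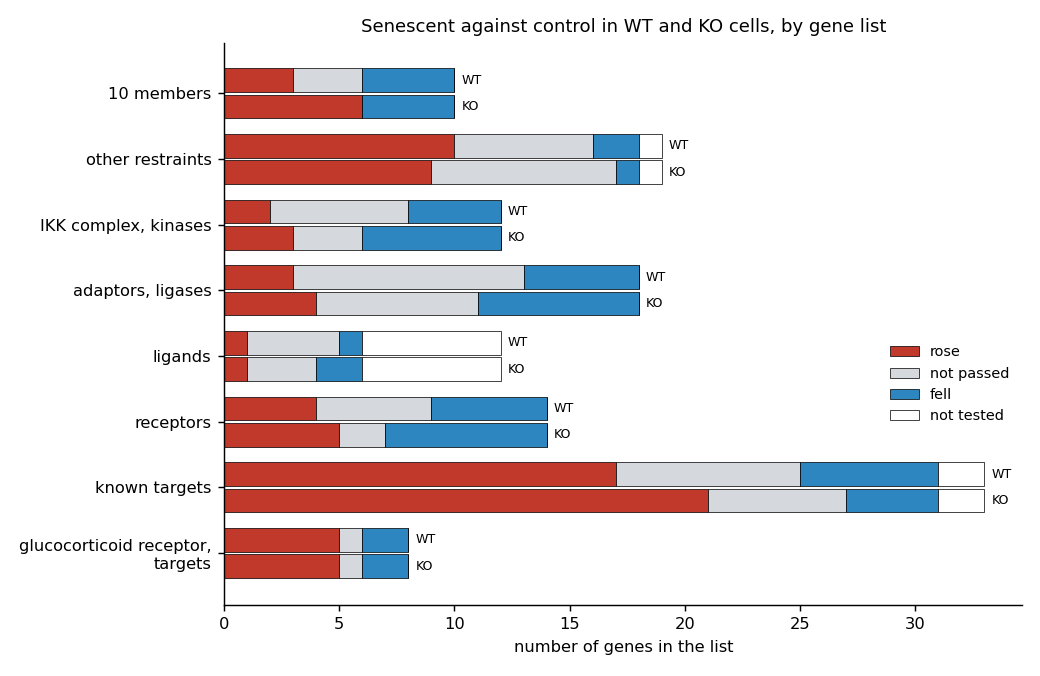
Number of genes in each list that rose (red), fell (blue), did not pass (grey) or were not tested (white) between senescent and control cells at an adjusted p of 0.05, with WT in the upper and KO in the lower bar of each pair. The 10 members split into 3 that rose and 4 that fell in WT cells and 6 and 4 in KO cells, while the known targets split into 17 that rose and 6 that fell in WT cells and 21 and 4 in KO cells.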

How the data were processed

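Poly(A) RNA of 12 MAF libraries (NEBNext Ultra II) was sequenced as paired reads. The deposited values were raw counts, which the authors made with Trimmomatic 0.36, STAR 2.5.2b on GRCm38 and featureCounts on uniquely mapped reads in exons; the annotation release and the use of strand are not given in the sources used here. The depth was 23923030 to 31736083 counts per library, and PCR copies were not removed by molecular identifiers, so intervals and floors cover counting error and replicate spread only. The study's own differential tests used DESeq2.

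Counts of both tables were joined by identifier (49056 of 49315 matched in GENCODE M21, the source of coordinates and of exon lengths, merged over all transcripts of a gene). Genes were kept by filterByExpr (17416), scaled by TMM and fitted over 12 libraries with 1 mean per group, and tested with edgeR 4.0.16 (R 4.3.3) by its quasi-likelihood F-test with Benjamini-Hochberg adjustment over all genes. A gene passed at an adjusted p under 0.05, and a change over 1 on the log2 scale was counted apart. Where no other tool is given, an adjusted p is from this test. SE was the absolute log2 fold change over the square root of F, and intervals were 95% intervals. The procedure was tested on simulated data of 17416 genes for the comparison of WT senescent with WT control. It recovered 67 of 100 genes with a true log2 change of 0.5, 42 of 50 at 1.0 and 50 of 50 at 2.0, with 7 false calls. Changes of 1.0 or less can therefore be missed. In these data 200 genes were given a change, whereas 56.2% of genes passed in the measured comparison of WT senescent with WT control. Recovery with so large a share of changed genes was not tested.

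The 5 comparisons were senescent against control in each genotype, their interaction, and KO against WT in each state. Alternatives were DESeq2 1.42.0, its size factors, other filters on low counts, fits of 2 groups, replicate blocks, leaving out each library, and a lymphocyte covariate added after seeing the data. Named genes were the 10 members, a fixed set of pathway genes, and up to 3 genes per list, direction and comparison (both senescence comparisons and the interaction) that passed with the largest change and a mean of at least 5 CPM in the higher group. Members and lists were chosen with earlier results of these data known.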

Additional observations from a re-analysis of the deposited data

Results flagged for a closer look

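The senescence change differed between KO and WT cells, by the test of the interaction itself, for 3 members. The KO change less the WT change on the log2 scale was Nfkb1 (-0.29 ± 0.07), Nfkb2 (0.23 ± 0.08) and Bcl3 (-0.60 ± 0.13), with an adjusted p of 0.00549, 0.0422 and 0.00308. Nfkb1 and Bcl3 fell further in KO cells, and both remained past the test without any one library. Nfkb2 did not pass without any one of 7 libraries.

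Of 107 other pathway genes tested, 18 were on the higher and 15 on the lower side (30.8% in all, beside 20.9% of all genes), with 9 and 3 of the 31 known targets among them. The 28 given here are those the naming rule takes, at most 3 a list and direction beside a fixed set, so their balance of directions depends on that limit. Values are the KO change less the WT change ± SE. Among restraints these were Nfkbib (0.45 ± 0.15), Rnf11 (0.39 ± 0.09), Otud7b (0.24 ± 0.07) and Pdlim2 (-0.46 ± 0.12), and among kinases and IKK subunits Ikbkg (0.23 ± 0.07), Ikbke (-0.48 ± 0.11), Tab2 (-0.22 ± 0.08) and Map3k3 (-0.35 ± 0.08). Adaptors and ligases were Traf3 (0.40 ± 0.08), Birc2 (-0.35 ± 0.09) and Sharpin (-0.30 ± 0.11). The ligand and receptors were Tnfsf11 (-0.86 ± 0.11), Tnfrsf1a (-0.25 ± 0.08), Tnfrsf1b (0.38 ± 0.12), Il1r1 (-0.52 ± 0.10), Il1rap (-0.66 ± 0.15), Il1rl1 (-0.26 ± 0.08), Tnfrsf12a (0.93 ± 0.14), Tlr3 (-0.65 ± 0.17) and Tlr4 (0.33 ± 0.10). Known targets were Ccl2 (0.79 ± 0.24), Cxcl5 (-0.63 ± 0.15), Lif (1.60 ± 0.23), Vcam1 (-0.62 ± 0.12), Ptgs2 (1.26 ± 0.26), Mmp3 (0.45 ± 0.10) and Irf1 (-0.47 ± 0.14). Between control cells 3 of the 31 known targets were already higher and 7 lower in KO (32.3% in all, beside 13.0% of all genes). Mean Vcam1 was 57.2 CPM in WT control and 109.9 CPM in KO control cells. Each KO senescent library also lay above each WT senescent library, so the negative value for Vcam1 does not mean less of it there. Mean Lif was 9.79 CPM in WT control and 5.32 CPM in KO control cells. Of the glucocorticoid targets Dusp1 (0.88 ± 0.08) differed.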

How the results depend on the processing

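The counts of WT and KO senescence calls among members kept within 1.5 times under every planned setting; the covariate for lymphocyte markers moved the KO rises to 3. For the interaction, members on the higher side numbered 3 with the DESeq2 test, 3 with DESeq2 size factors, 2 with no filter, 2 with at least 1 CPM in 3 libraries, 2 with a replicate block shared by the 4 groups and 0 with the covariate, and 0 to 2 when 1 library was left out. Under the covariate the interaction calls over all genes were 813 higher and 1270 lower, the calls between senescent KO and WT cells 1046 higher and 1144 lower, and the members among these 0 higher and 1 lower. Leaving out 1 library gave 1 to 4 members higher and 1 to 3 lower between senescent KO and WT cells. Between control cells it gave 0 to 1 member higher, 911 to 1542 genes higher (911 and 497 lower without WT control replicate 1) and 437 to 1030 genes lower (462 without KO control replicate 2 and 437 without KO control replicate 3). The cause of these shifts was not tested.

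Changes and differences that reversed sign in some alternative run were not called in any run, with the exception of Rel. Its interaction and senescent difference reversed only under the covariate, where they were not called. Without KO senescent replicate 1 they kept their sign and passed (interaction -0.45, adjusted p = 0.0314, and senescent difference -0.48, adjusted p = 0.00351). Leaving out 1 library, the WT change was -0.05 to 0.10 for Nfkbia and -0.14 to 0.18 for Tnfaip3, the interaction of Relb was -0.00 to 0.19, and the control difference was -0.03 to 0.14 for Rela, -0.07 to 0.03 for Relb, -0.08 to 0.07 for Rel, -0.03 to 0.04 for Nfkb2 and -0.10 to 0.06 for Nfkbia. The senescent difference was -0.02 to 0.17 for Relb and -0.05 to 0.03 for Nfkbiz. Nfkbia in WT cells was -0.00 in the fit of 2 groups, Nfkbiz between senescent cells 0.00 with the DESeq2 test and 0.00 with its size factors, and Nfkb2 between control cells 0.00 with no filter. Under the covariate the interaction was -0.00 for Relb and 0.09 for Rel, the control difference 0.00 for Nfkb2 and 0.00 for Nfkbia, and the senescent difference -0.02 for Relb and 0.04 for Rel.

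Same-numbered libraries of different groups had correlations, after centring on group means, of -0.125 to 0.127, with 2 of 18 over 0.1. Differently numbered libraries had correlations of -0.191 to 0.173. With 3 libraries a group, these values cannot show whether same-numbered libraries shared an animal or culture. With a replicate block within each genotype the interaction of Nfkb2 was 0.23 (adjusted p = 0.0607) and that of Tnfaip3 0.69 (adjusted p = 0.00312), and with the block shared by the 4 groups that of Nfkbia was 0.35 (adjusted p = 0.0477); the blocks changed no other member's call. The interaction of Nfkbia also passed with DESeq2 size factors (0.39, adjusted p = 0.036) and with at least 1 CPM in 3 libraries (0.37, adjusted p = 0.0383), and that of Tnfaip3 with DESeq2 size factors (0.73, adjusted p = 0.0495). With 3 libraries a group, effects of a size within the printed intervals could not be resolved, and Nfkbie and Tnfaip3, with the widest intervals, are limited most.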
